A study of Mus musculus with 2 samples.

Results

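The miR-23a/27a/24-2 and miR-23b/27b/24-1 clusters are paralogous miRNA loci, and 10 of their mature arms were examined, chosen by name among the 1976 mature miRNAs listed for each library. All 10 were found. They comprised 5 arms from the 3′ side of a hairpin (3p) and 5 from the 5′ side (5p). The small RNA came from exosomes, vesicles that cells release into their medium, made by bone marrow-derived macrophages of C57BL/6 mice aged 5 to 6 weeks. In both groups marrow cells were grown with the macrophage growth factor M-CSF at 10 ng/mL for 7 days. The cells behind the M1 exosomes then received IFN-γ at 20 ng/mL for 1 day, and those behind the M2 exosomes received IL-4 at 20 ng/mL for 1 day. Both were then kept without serum for 2 days while the vesicles gathered in the medium. The question was how the small RNA cargo differs between the M1 and M2 states. There was 1 library per group, so no value has a replicate error, no difference was tested, and every comparison is between 2 libraries. The labels do not say whether animals were pooled, and no unpolarised control was analysed here.

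Each cluster gives 1 primary transcript that holds a hairpin of miR-23, of miR-27 and of miR-24, and Drosha and Dicer release both arms of each hairpin. One arm, the guide, is usually kept by Argonaute and directs repression through its seed, bases 2 to 8, while the other, the passenger, is mostly degraded. In all of these hairpins the 3p arm is the usual guide. In haematopoiesis the miR-23a cluster is known as a target of the transcription factor PU.1 that favours myeloid over B lymphoid fate. Among guides, miR-27 is known for repressing PPARγ, a nuclear receptor of alternatively activated macrophages, miR-23 for repressing regulators of NF-κB signalling, and miR-24 for repressing cell cycle genes.

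The mature sequences define what could be told apart, and RefSeq (GRCm38.p6) held 9 of the 10. They are given 5′ to 3′ with the seed in capitals, guides first (mmu- marks mouse).
mmu-miR-23a-3p: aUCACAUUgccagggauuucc
mmu-miR-27a-3p: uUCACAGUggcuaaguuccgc
mmu-miR-27b-3p: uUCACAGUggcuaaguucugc
mmu-miR-24-3p: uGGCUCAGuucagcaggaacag
mmu-miR-23a-5p: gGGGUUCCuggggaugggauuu
mmu-miR-27a-5p: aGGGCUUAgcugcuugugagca
mmu-miR-27b-5p: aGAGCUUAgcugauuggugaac
mmu-miR-24-2-5p: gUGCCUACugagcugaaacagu
mmu-miR-24-1-5p: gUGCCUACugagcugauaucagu

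miR-27a-3p and miR-27b-3p share 20 of 21 bases, and the difference, C19U counted from the 5′ end with miR-27a-3p first, lies outside the seed. Reads of these paralogs that end early or carry an error there may be split between them, so their separate levels are uncertain, as are those of miR-23a-3p and miR-23b-3p. miR-24-3p is identical from both clusters and cannot be assigned to a locus. The 5p arms differ more. miR-27a-5p and miR-27b-5p differ at 8 of 22 positions, with G3A inside the seed, while miR-24-2-5p and miR-24-1-5p share their first 16 bases and their seed. The guides of miR-23 and miR-27 have seeds that differ by U7G, counted with miR-23a-3p first.

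The chromosome 8 cluster spans 404 bases, chr8:84208518-84208921 (GRCm38, the assembly called mm10), on the plus strand, in the order Mir23a, Mir27a, Mir24-2. GENCODE M21 annotates no protein-coding gene over it. The lincRNA Gm26532 begins at position 84208920, within the last bases of Mir24-2. The chromosome 13 cluster spans 792 bases, chr13:63300484-63301275, on the plus strand, in the order Mir23b, Mir27b, Mir24-1. It lies within 2010111I01Rik (Aopep in RefSeq), an aminopeptidase gene of the same strand. Mir23b is intronic there, and Mir27b and Mir24-1 overlap exons of some transcripts. The gene Fancc also covers the cluster, on the minus strand. Hairpins Mir3074-2 and Mir3074-1 lie antisense to Mir24-2 and Mir24-1.

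The hairpins of miR-27 are shown because the distance between their arms changed between the libraries, with both mature arms in capitals, the 5p arm first.
Mir27a (chr8:84208672-84208758, plus strand): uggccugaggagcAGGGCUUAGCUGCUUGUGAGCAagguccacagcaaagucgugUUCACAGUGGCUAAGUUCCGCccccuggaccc
Mir27b (chr13:63300712-63300784, plus strand): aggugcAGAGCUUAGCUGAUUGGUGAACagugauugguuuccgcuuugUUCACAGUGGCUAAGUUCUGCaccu

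The authors deposited log2 values. A level here is 2 to the power of the value, minus 1, in units of that scale, and a log2 ratio is the M1 value minus the M2 value. Levels summed to 686353 units in the M1 library and 734637 units in the M2 library. The number of reads is unknown. Evenly spaced low values of miRNAs at or near 0 in the other library put 1 read near 0.80 units in the M1 library. In the M2 library they put it near 1.23 units. The 6 macrophage and myeloid miRNAs checked (miR-223-3p, both arms of miR-142a, miR-155-5p, miR-146a-5p and miR-21a-5p) were present in both libraries, with 3 higher in the M1 library, 1 higher in the M2 library and 2 within 2-fold. They held 21.5% of the summed level in the M1 library and 13.4% in the M2 library. These counts follow the 2-fold rule given below. By it 26.1% of all compared miRNAs were called higher in the M1 library and 22.8% higher in the M2 library. Some markers of other cell types differed as well. The 5 erythroid miRNAs summed to 7948 units in the M1 library and 1498 in the M2 library, with 4 of 4 compared members higher in the M1 library. The 3 hepatocyte miRNAs summed to 60272 and 13050 units, with 1 of 3, miR-122-5p, higher in the M1 library. miR-122-5p alone had 59764 units in the M1 library and 12650 in the M2 library. For the 7 stromal miRNAs the sums were 5658 and 1824 units, with 4 of 6 compared members higher in the M1 library. Log2 ratios of the compared members ran from 2.23 to 3.76, from 0.34 to 2.24 and from -0.33 to 3.91 in these 3 lists. The 2 endothelial miRNAs, both arms of miR-126a, summed to 962.3 and 588.7 units and stayed within 2-fold, at 0.38 and 0.71. None of the miRNAs on the 4 lists was listed at 0 in either library, but the stromal miR-214-3p lay below the worth of 1 read in the M2 library. Whether cells of these types contributed to the differences below was not tested.

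In a bulk preparation, fewer vesicles of a kind and less RNA per vesicle cannot be told apart. Together the 10 arms held 12.2% of the summed level of the M1 library and 9.84% of that of the M2 library. Guides made up nearly all of it, 98.9% of the members' level in the M1 library and 98.6% in the M2 library. Arms with 10 units or more in either library were compared, which took in 9 of the 10 and 337 of all miRNAs, and a 2-fold difference or more was called. Of these 9 arms 3 were called higher in the M2 library, 0 were called higher in the M1 library and 6 stayed within the 2-fold lines. Over all 337 miRNAs 22.8% were called higher in the M2 library and 26.1% higher in the M1 library, 49.0% in all. The members' share called was 33.3%. All 9 arms had 10 units or more in both libraries, and among the 246 miRNAs that did, 37.4% were called, close to the members' share. With a 1.5-fold line, 4 arms were higher in the M2 library and 2 in the M1 library, beside 32.9% and 33.8% of all compared miRNAs, 66.8% in all. The median log2 ratio of the 9 arms was 0.10 (SD over members 0.88), beside 0.04 (SD 1.59) over all compared miRNAs.

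**Figure D1:**
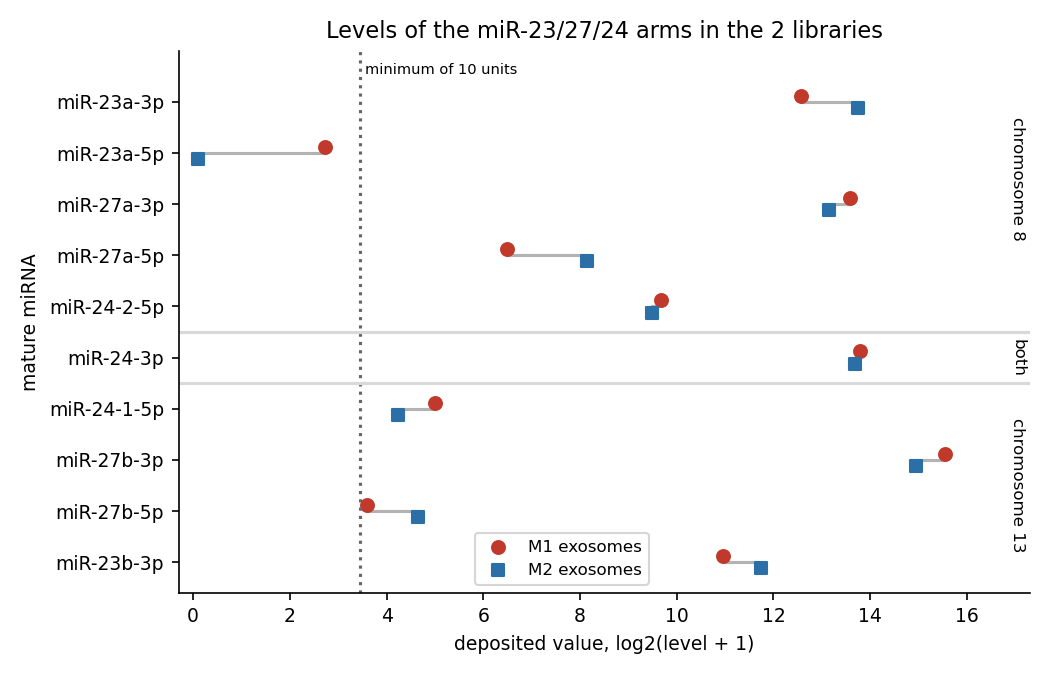
Deposited values, log2(level + 1), of the 10 arms in the M1 library (M1 exosomes, red circles) and M2 exosomes (M2 exosomes, blue squares), 1 library each, grouped by cluster. The guides lie between 10.95 and 15.55, miR-23 guides are further right in the M2 library, and miR-27 guides are further right in the M1 library.

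Among the guides, miR-23 and miR-27 went opposite ways, and did so in both clusters. Most of these ratios were not unusual, however. The quartiles of the log2 ratio over all compared miRNAs were -0.91 and 1.07, and of these guides only miR-23a-3p lay outside them. miR-23a-3p had 6046 units in the M1 library and 13805 units in the M2 library, a log2 ratio of -1.19, or 2.28-fold higher in the M2 library. It was the one guide past the 2-fold line. Its paralog miR-23b-3p had 1975 units in the M1 library and 3412 units in the M2 library, a log2 ratio of -0.79 that stayed within 2-fold. Both miR-23 guides were thus higher in the M2 library. A lower ratio than that of miR-23a-3p was seen in 17.8% of all compared miRNAs, and than that of miR-23b-3p in 27.3%.

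miR-27a-3p had 12287 units in the M1 library and 9139 units in the M2 library, a log2 ratio of 0.43. miR-27b-3p, the most abundant of the 10 arms, had 48041 units in the M1 library and 31761 units in the M2 library, a log2 ratio of 0.60. It ranked 3 of all miRNAs in the M1 library and 9 in the M2 library, with 7.00% and 4.32% of the summed level. Both miR-27 guides were higher in the M1 library, each within 2-fold. Their ratios lay above those of 61.1% (the chromosome 8 guide) and 66.2% (the chromosome 13 guide) of all compared miRNAs. miR-24-3p lay between the families, with 14115 units in the M1 library and 13151 units in the M2 library and a log2 ratio of 0.10.

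Added over paralogs, the miR-23 guides had 8020 units in the M1 library and 17217 units in the M2 library, a log2 ratio of -1.10. The summed miR-27 guides had 60328 units in the M1 library and 40900 units in the M2 library, a log2 ratio of 0.56. If each read was counted once, these sums do not depend on which paralog of a family it was given to. Whether each read was counted once is not given in the sources used here. Of the level of miR-23 and miR-27 guides together, miR-23 held 11.7% in the M1 library and 29.6% in the M2 library. With miR-24-3p, the order of the families was miR-27, miR-24, miR-23 in the M1 library, and miR-27, miR-23, miR-24 in the M2 library. With 1 library each, whether neighbours in this order differ beyond replicate spread could not be judged.

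**Figure D2:**
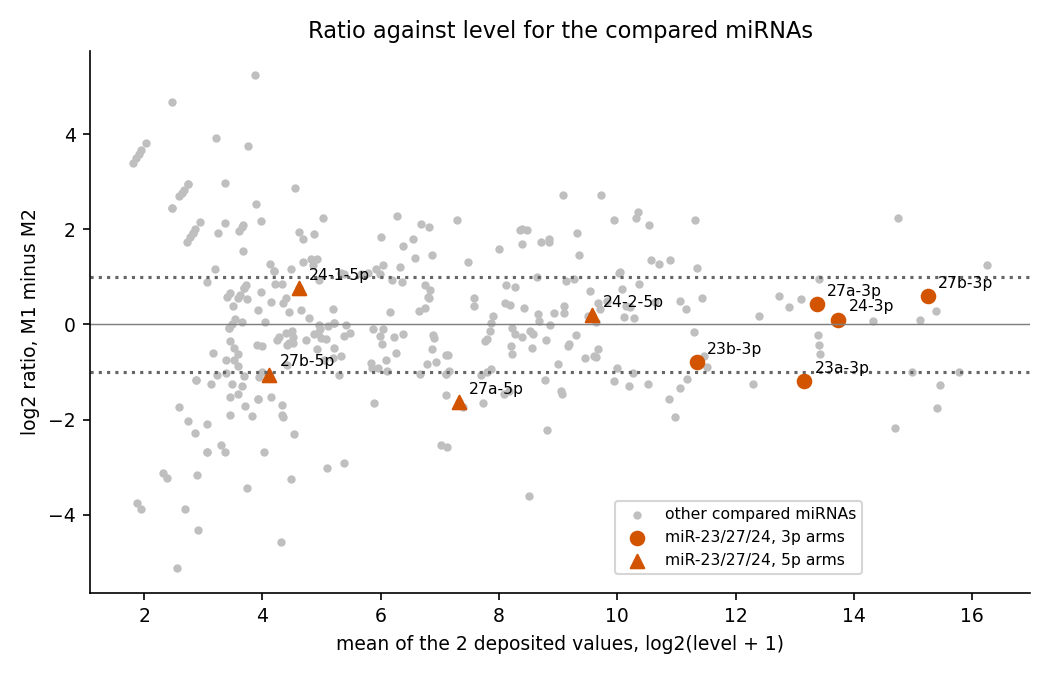
Log2 ratio (M1 minus M2) against the mean of the deposited values for the 337 compared miRNAs (grey) and the 9 compared arms (orange circles 3p, orange triangles 5p). Dotted lines mark 2-fold. The miR-23 guides lie below 0 and the miR-27 guides above it, and miR-23a-3p, miR-27a-5p and miR-27b-5p lie beyond the lower line.

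Within each cluster the guides of the neighbouring miR-23 and miR-27 hairpins therefore had unlike ratios. On chromosome 8, miR-27a-3p stood 1.02 log2 units above miR-23a-3p in the M1 library and 0.59 below it in the M2 library. The order of these neighbours was thus reversed between the libraries, a change of 1.62 on the log2 scale. On chromosome 13, miR-27b-3p stood above miR-23b-3p by 4.60 log2 units in the M1 library and 3.22 in the M2 library, a change of 1.39. Such changes were not uncommon for neighbours. Among 32 other pairs of compared miRNAs from hairpins within 1000 bases on a strand, taking for each hairpin the most abundant compared arm that maps to a single place, the median size was 0.86 and 11 were at least as large as either. Where the guide maps to several places, as for let-7f, this arm is the passenger, so these pairs mix guides and passengers. The miR-27 guides changed less against miR-24-3p, the guide of the next hairpin in each cluster. This change was 0.325 for miR-27a-3p and 0.495 for miR-27b-3p, with miR-24-3p counted from both clusters.

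Between paralogs the change was smaller than between the miR-23 and miR-27 guides of a cluster. miR-23a-3p exceeded miR-23b-3p by 1.61 log2 units in the M1 library and 2.02 in the M2 library, a change of -0.40. miR-27a-3p lay below miR-27b-3p, with a log2 difference of -1.97 in the M1 library and -1.80 in the M2 library, a change of -0.17. Over 24 other pairs named a and b with both members compared, the median size of this change was 0.44, and 13 were at least as large as that of miR-23 and 17 as that of miR-27. How far reads shared in the counting bring such paralogs together was not tested.

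As counted, the clusters took unlike shares of the families. miR-23a-3p, from chromosome 8, made up 75.4% of the miR-23 guides in the M1 library and 80.2% in the M2 library. miR-27a-3p, also from chromosome 8, made up 20.4% of the miR-27 guides in the M1 library and 22.3% in the M2 library. Most of the miR-27 guide level was thus counted to chromosome 13. These shares and the cluster sums rest on the split of reads between paralogs, which is uncertain. The sum of miR-23a-3p and miR-27a-3p was 18333 units in the M1 library and 22944 units in the M2 library, a log2 ratio of -0.32. For miR-23b-3p and miR-27b-3p the sum was 50015 units in the M1 library and 35173 units in the M2 library, a log2 ratio of 0.51. The cluster ratios differed by -0.83 (chromosome 8 minus chromosome 13), and each sum was within 2-fold. Each sum joins a miR-23 guide and a miR-27 guide whose ratios had opposite signs.

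**Figure D3:**
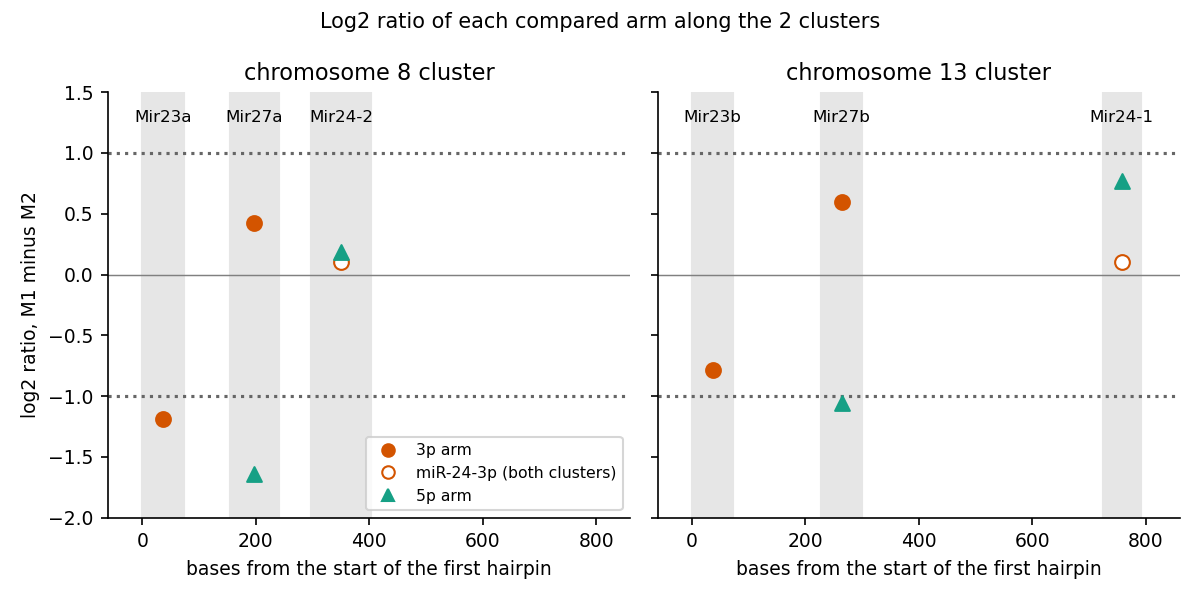
Log2 ratio (M1 minus M2) of each compared arm at its hairpin, with distance in bases from the first hairpin's start, for the chromosome 8 cluster (left) and the chromosome 13 cluster (right). Grey bands are hairpins and dotted lines mark 2-fold; in both clusters the miR-23 guide and the miR-27 5p arm lie below 0 and the miR-27 guide above it.

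The passenger arms of miR-27 were the other members higher in the M2 library, against the direction of their guides. miR-27a-5p had 89.4 units in the M1 library and 280.3 units in the M2 library, a log2 ratio of -1.64, or 3.11-fold higher in the M2 library on the log2(level + 1) scale. Of all compared miRNAs 11.6% had a lower ratio. miR-27b-5p had 11.02 units in the M1 library and 23.95 units in the M2 library, a log2 ratio of -1.05. At the worth of 1 read at low levels that is about 13.7 reads in the M1 library and 19.5 in the M2 library, so its place just past the 2-fold line is uncertain from counting alone. It lay within 2-fold, at -0.96, when levels were divided by each library's sum.

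The arms of miR-27 were thus further apart in the M1 library. miR-27a-3p exceeded miR-27a-5p by 7.09 log2 units in the M1 library and 5.02 in the M2 library, a change of 2.07. miR-27b-3p exceeded miR-27b-5p by 11.96 log2 units in the M1 library and 10.31 in the M2 library, a change of 1.65. Among 66 other miRNAs whose arms share 1 name and were both compared, the median size of the change was 0.75. Of these, 11 were at least as large as that of miR-27a and 14 as that of miR-27b. Arms named by locus, such as let-7f-1-3p, were not paired here. The gap between the arms of miR-27b was also wide among these miRNAs. Of the 66, 1 had as large a gap in the M1 library and 3 in the M2 library. The median gap was 3.32 log2 units in the M1 library and 3.41 in the M2 library. miRNAs with an arm below 10 units in both libraries, as in miR-23a, were left out. That filter can leave out wide gaps, so how rare the gap of miR-27b is cannot be judged.

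**Figure D4:**
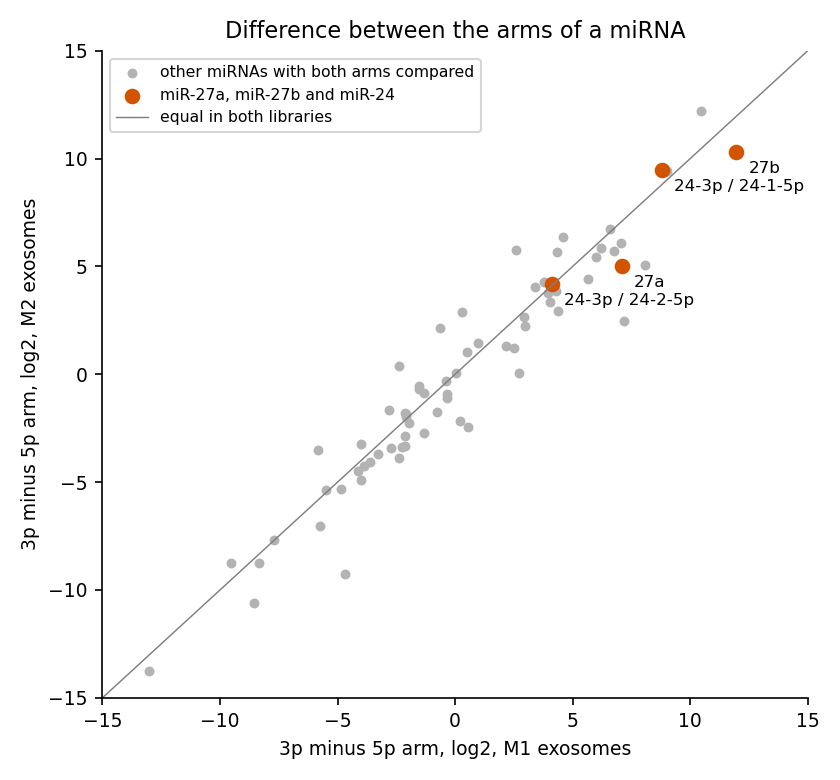
Log2 difference between the 3p and the 5p arm in the M1 library (horizontal) and in the M2 library (vertical). Grey marks 66 other miRNAs whose arms share 1 name and were both compared. Orange marks miR-27a, miR-27b and miR-24, where miR-24-3p is set against each of its 5p arms. The line marks equal differences; miR-27a and miR-27b lie below it, so their arms were further apart in the M1 library.

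The passenger arms of miR-24 tell its loci apart where the guide cannot. miR-24-2-5p, from chromosome 8, was the most abundant 5p arm, with 814.8 units in the M1 library and 715.1 units in the M2 library and a log2 ratio of 0.19. miR-24-1-5p, from chromosome 13, had 30.9 units in the M1 library and 17.8 units in the M2 library, a log2 ratio of 0.77 within 2-fold. At the worth of 1 read at low levels, that is about 38.4 reads in the M1 library and 14.5 in the M2 library. The ratio of miR-24-1-5p is thus uncertain from counting alone. The chromosome 8 arm exceeded the chromosome 13 arm by 4.68 log2 units in the M1 library and 5.25 in the M2 library. How this bears on the source of miR-24-3p was not tested, since the arms differ in sequence and in what is kept.

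The guide of miR-24 kept nearly the same distance from its chromosome 8 5p arm in both libraries. miR-24-3p exceeded miR-24-2-5p by 4.11 log2 units in the M1 library and 4.20 in the M2 library, a change of -0.09. Against miR-24-1-5p, the chromosome 13 arm, the distance was 8.79 in the M1 library and 9.45 in the M2 library, a change of -0.66. With a pseudocount of 10 that change was -0.46, and it rests on the few reads of miR-24-1-5p. The chromosome 8 5p arm also led for miR-27, where miR-27a-5p exceeded miR-27b-5p by 2.91 log2 units in the M1 library and 3.50 in the M2 library. This is the opposite order to that of the miR-27 guides, of which miR-27b-3p was the higher.

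miR-23a-5p was the member left out of the comparison. It had 5.63 units in the M1 library, about 7.00 reads, and 0.07 units in the M2 library, less than 1 read is worth there. In the M2 library 3 reads would be worth 3.68 units, so the size of the difference cannot be given. miR-23b-5p, the corresponding arm of chromosome 13 and not among the 10, was similar, with 4.03 units in the M1 library and 0.06 units in the M2 library.

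Entries antisense to miR-24 were present in both libraries, each within 2-fold. The sequence of miR-3074-5p is the reverse complement of miR-24-3p over 20 bases. It had 1068 units in the M1 library and 763.3 units in the M2 library, a log2 ratio of 0.48, and lay below miR-24-3p by 3.72 log2 units in the M1 library and 4.11 in the M2 library. miR-3074-2-3p, antisense to miR-24-2-5p, had 291.2 units in the M1 library and 305.8 units in the M2 library, a log2 ratio of -0.07. miR-3074-1-3p, from the antisense hairpin on chromosome 13, had a log2 ratio of -0.44. Whether counting used strand is not given in the sources used here. How far reads were shared between a hairpin and its antisense partner was not tested.

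Other miRNAs near the members in sequence, place or level gave context. miR-128-3p, with seed CACAGUG, shares 8 consecutive bases with the miR-27 guides, set 1 base apart. It had 333.3 units in the M1 library and 251.5 units in the M2 library, and its log2 ratio of 0.41 lay close to that of miR-27a-3p. Of the 4 arms of miR-181c and miR-181d, the neighbouring hairpins on chromosome 8, only miR-181d-5p was compared, with a log2 ratio of 0.69. The endothelial miR-126a-3p, from a cell type in which these clusters are also well studied, had 950.5 units in the M1 library and 579.8 units in the M2 library, a log2 ratio of 0.71.

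The miRNA nearest to each of the 7 members with a mean of at least 100 units was found by distance in the 2 log2 values, a likeness over 2 libraries only. miR-221-3p was nearest to miR-27b-3p, at values of 15.52 in the M1 library and 15.24 in the M2 library. miR-222-3p, from the hairpin next to that of miR-221, was nearest to miR-27a-3p, at 13.38 and 12.85. miR-146b-5p was nearest to miR-23a-3p, with a log2 ratio of -0.62, and miR-532-5p to miR-23b-3p, with -0.66. let-7g-5p was nearest to miR-24-3p, with -0.23, miR-152-3p to miR-27a-5p, with -1.74, and miR-186-5p to miR-24-2-5p, with 0.17.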

How the data were processed

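Small RNA libraries were made from 500 ng of exosome RNA with a NEBNext kit, per the labels' protocols. Per the submitters' processing notes, Bowtie2, bedtools and the mm10 build were used; versions, trimming, the handling of reads matching several places, strand use and normalization were not given in those sources. The authors deposited log2 values, 1 per mature miRNA. Even steps were sought only among low levels of miRNAs at or near 0 in the other library. Of these, 99.4% of 174 values in the M1 library and 97.7% of 128 in the M2 library lay within 0.1 step. The same values set the worth of 1 read there. The low levels of miR-27b-5p and miR-24-1-5p, present in both libraries, lay off these steps, so their numbers of reads are approximate. In the M2 library 175 values lay above 0 but below 1 read, so the libraries appear normalized together, and ratios are relative to a median of 0.04. Mature lengths of the members were 21 to 23 bases, so levels were compared without a length correction. Ratios, on the log2(level + 1) scale, understate differences of low miRNAs. The members, lists and rules were chosen with earlier results of these data known. Named were all members, the sequence and locus relatives averaging 100 units or more, and the nearest non-member of each member at that mean; marker lists were kept to counts, ranges and sums, except for miR-122-5p and miR-126a, although the rule set at the start gave values for their members at that mean too. Others were named after their values were seen. The procedure was also run on simulated data with differences planted in 200 compared miRNAs and counting noise as the only error. Such data cannot show how far the calls would repeat in new libraries. Sequences are from RefSeq (GRCm38.p6) and overlaps from GENCODE M21. Python 3.11.15, numpy 2.4.6 and pandas 2.3.3 were used.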

Additional observations from a re-analysis of the deposited data

How the results depend on the processing

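No paired analysis was possible because M1 and M2 exosomes gave 1 library each, which also left no replicate to omit. The directions of the 10 member ratios, the cluster sums and the paralog, arm and family differences were the same under every alternative run for them (pseudocounts of 0.1 and 10, and, except for paralogs and arms, 3 scalings); the family difference was added after seeing the data. miR-23a-3p ranged from -1.26 to -1.09 and miR-27a-5p from -1.71 to -1.54, while miR-24-3p ranged from 0.03 to 0.20. The log2 ratio of miR-27b-5p was -0.69 with a pseudocount of 10 and -0.96 with levels divided by each library's sum, and that of miR-23a-5p, too low to compare, ranged from 0.63 to 5.10. Division by the sum moved the median of all ratios by 0.10. Counts of members higher in the M1 library were 1 with no minimum (miR-23a-5p) and 2 with a 1.5-fold line (miR-27b-3p and miR-24-1-5p). Members higher in the M2 library fell from 3 to 2 with a minimum of 100 units, where 7 were compared. They also fell to 2 with a pseudocount of 10 and with levels divided by each library's sum, and rose to 4 with a 1.5-fold line. Over all miRNAs, 201 were higher in the M1 library and 229 in the M2 library of 747 compared with no minimum, 37 and 33 of 162 with a minimum of 100 units, and 55 and 37 of 246 with the minimum in both libraries, where the members stayed at 3 higher in the M2 library of 9 compared. The unknown number of reads limits the 5p arms most.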
